A study of Rattus norvegicus with 8 samples.

Results

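The genes described here make glucose and ammonia in the kidney: Pck1, Pck2, Fbp1, G6pc1, Slc37a4, Slc38a3 and Glud1. They are a list of 7 symbols with these roles among 15037 named genes on the array, and each had 1 probe set. All 7 passed the filter on low values, under which the highest of the 8 values had to reach 7.54. The study concerns phlorizin, which blocks sodium-coupled glucose uptake through SGLT2 and SGLT1, in a rat model of kidney stones. Male Sprague-Dawley rats, 10 weeks old, received ethylene glycol with alfacalcidol (called EG here) together with phlorizin, EG alone, phlorizin alone, or neither (control). EG was given for 2 weeks, the kidneys were divided into the outer medulla and the cortex, and RNA from either zone was read on Clariom S arrays. Each zone and treatment had 1 array, 8 in all. The labels give no dose and do not say how many animals an array stands for, and both zones may come from the same animals. EG is a chemical model: the liver turns ethylene glycol into oxalate, and alfacalcidol is a vitamin D analogue.

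The proximal tubule of the kidney cortex, like the liver, can make glucose from lactate, glutamine and other substrates. Glutamine enters the cell, loses its amide and amino nitrogen as ammonium, which carries acid into the urine, and leaves a carbon skeleton that feeds gluconeogenesis. Slc38a3 encodes the glutamine transporter SNAT3 of the basolateral membrane, and Glud1 the mitochondrial glutamate dehydrogenase that releases ammonium from glutamate. Pck1 and Pck2 encode the cytosolic and the mitochondrial phosphoenolpyruvate carboxykinase, the entry step from oxaloacetate. Fbp1 encodes fructose-1,6-bisphosphatase, a later irreversible step. G6pc1 encodes the catalytic subunit of glucose-6-phosphatase, which releases free glucose inside the endoplasmic reticulum, and Slc37a4 the transporter that brings glucose-6-phosphate there. In metabolic acidosis, Pck1 and Slc38a3 are known to be induced in the rat kidney.

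In the build GRCr8, Pck1 lies at chr3:182348572-182354521, Pck2 at chr15:32997853-33006691, Fbp1 at chr17:2212941-2235749, G6pc1 at chr10:86807659-86819023, Slc37a4 at chr8:53619952-53626110, Slc38a3 at chr8:117202534-117220310 and Glud1 at chr16:9646569-9680215. Promoters of 4 of the genes are shown because they include the pair of phosphoenolpyruvate carboxykinases, whose values differed in pattern, and the glucose-6-phosphatase pair, which works as a unit. The windows run from 250 bases before to 50 bases after the start site, are taken from RefSeq on the build GRCr8 and are all on the plus strand. Capitals mark matches to any of 3 short cores on either strand. These were ACGTCA, the core of a cAMP response element, GTTAAT, a core of HNF1 sites, and TGTTTTG, a core of forkhead sites of the insulin response.
Pck1, chr3:182348322-182348621: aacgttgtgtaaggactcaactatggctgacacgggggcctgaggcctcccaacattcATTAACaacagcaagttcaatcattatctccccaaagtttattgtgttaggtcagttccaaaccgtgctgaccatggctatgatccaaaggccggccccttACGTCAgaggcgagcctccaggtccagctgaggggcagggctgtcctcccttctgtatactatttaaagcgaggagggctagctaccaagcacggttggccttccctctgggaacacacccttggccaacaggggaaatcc
Pck2, chr15:32997603-32997902: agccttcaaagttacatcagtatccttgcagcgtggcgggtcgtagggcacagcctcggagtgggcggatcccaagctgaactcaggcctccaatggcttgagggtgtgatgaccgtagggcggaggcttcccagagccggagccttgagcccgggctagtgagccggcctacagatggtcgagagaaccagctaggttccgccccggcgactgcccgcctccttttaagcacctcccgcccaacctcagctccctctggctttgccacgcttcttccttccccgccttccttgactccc
G6pc1, chr10:86807409-86807708: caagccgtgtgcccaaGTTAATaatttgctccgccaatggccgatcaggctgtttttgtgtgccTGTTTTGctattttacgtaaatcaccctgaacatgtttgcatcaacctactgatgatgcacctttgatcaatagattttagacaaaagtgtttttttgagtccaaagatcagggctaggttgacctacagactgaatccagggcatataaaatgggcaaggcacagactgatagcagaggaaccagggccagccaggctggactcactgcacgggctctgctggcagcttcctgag
Slc37a4, chr8:53619775-53620074: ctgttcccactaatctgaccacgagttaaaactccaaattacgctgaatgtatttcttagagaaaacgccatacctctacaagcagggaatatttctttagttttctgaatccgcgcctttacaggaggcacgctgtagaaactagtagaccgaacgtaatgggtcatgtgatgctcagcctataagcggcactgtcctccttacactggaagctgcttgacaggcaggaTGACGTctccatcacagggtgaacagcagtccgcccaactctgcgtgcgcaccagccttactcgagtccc

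The Pck1 window held the cAMP core at -91 to -86 from the start site and the HNF1 core, on the minus strand, at -192 to -187. In the G6pc1 window the HNF1 core lay at -234 to -229 and the forkhead core at -186 to -180. The Slc37a4 window held the cAMP core on the minus strand at -20 to -15, and a second listed start site of this gene has a window that overlaps the same letters. None of the 3 cores was in the windows of Pck2, Fbp1 or Glud1. The start sites of the Slc37a4 and Fbp1 windows lie inside the gene spans given above, not at their starts. For Fbp1 the window was chr17:2213457-2213756, so the bases before its gene span were not searched. Among all 33469 promoter windows of this length, 7.94% held the cAMP core, 7.45% the HNF1 core and 6.28% the forkhead core. A match is a description of letters and not a bound site. A window was listed for 6 of the 7 genes, and Slc38a3 was not among them.

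Values below are the log2 RMA values that the authors deposited. The 23 background probe sets of an array ranged from 2.72 to 7.98 over the 8 arrays, so a value under about 8 was not above background. The poly-A spike-in controls of the cortex EG array averaged 6.42, against 7.46 to 8.23 on the other 7 arrays. Levels of different probe sets were not compared with each other. In bulk tissue, fewer cells of a type and less RNA per cell cannot be told apart. With 1 array per group, a difference between 2 arrays has no replicate check and no p-value.

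**Figure D1:**
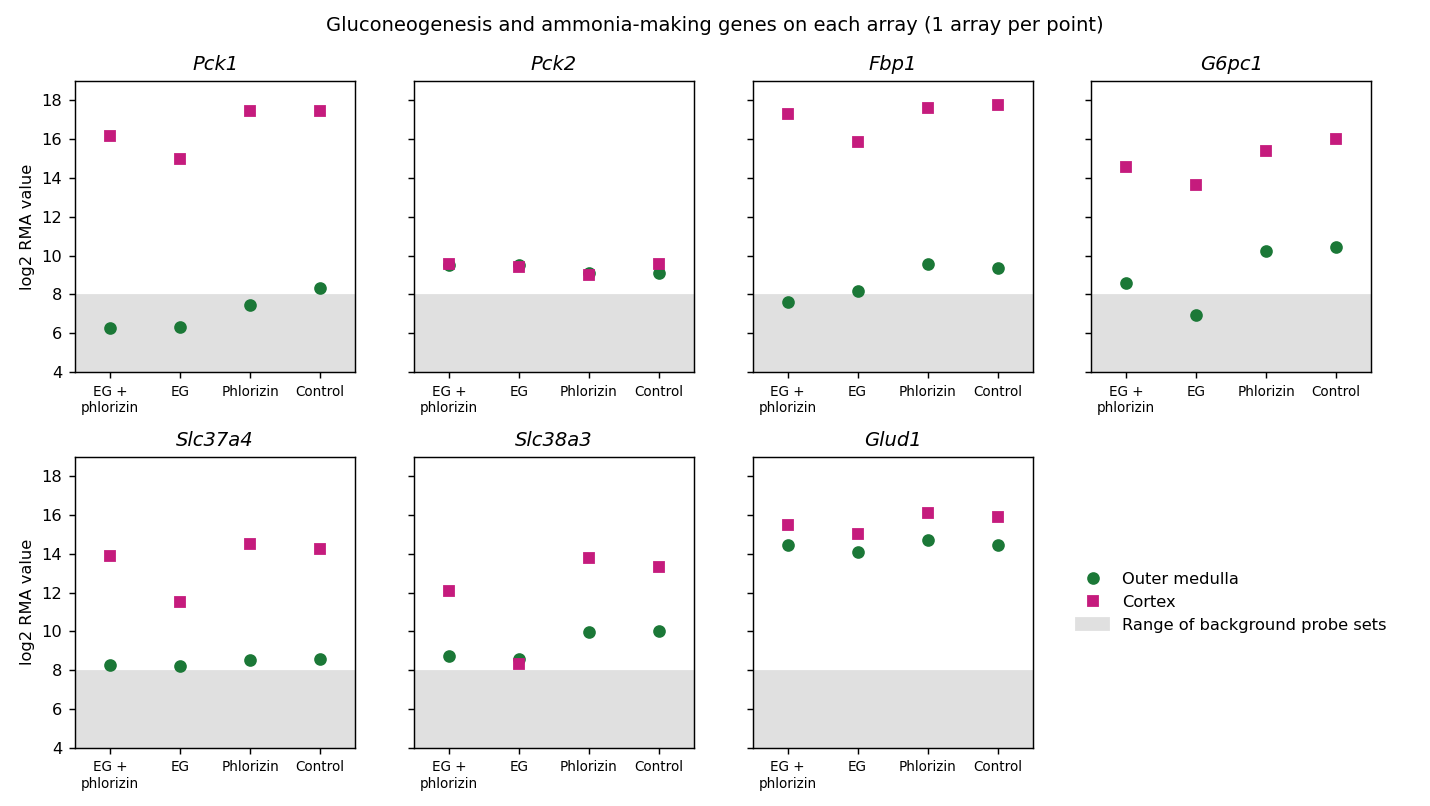
Log2 RMA values of the 7 genes (vertical axes) on the arrays of EG with phlorizin, EG, phlorizin and control, with circles for the outer medulla and squares for the cortex and 1 array per point. The grey band spans the values of the background probe sets up to 7.98. In the cortex, 6 genes have their lowest point with EG, and Pck2 lies between 9.02 and 9.58.

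Slc38a3, the glutamine transporter, had the largest EG difference of the 7 genes in the cortex. There it stood at 12.10 with EG and phlorizin and at 8.33 with EG, against 13.80 with phlorizin and 13.30 in the control. The EG array was thus lower than the control array by 31.3-fold (difference -4.97), and close to the background range. Under phlorizin the cortex difference was -1.70, a 3.26-fold lower value, which uses other arrays. In the outer medulla Slc38a3 stood at 8.73 with EG and phlorizin and 8.57 with EG, against 9.98 with phlorizin and 10.01 in the control. Its EG differences there were -1.44 without and -1.26 with phlorizin, so both EG arrays of that zone lay below both arrays without EG.

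Glud1, which releases the second ammonium of glutamine, differed less. Its cortex values were 15.48 with EG and phlorizin and 15.02 with EG, against 16.09 with phlorizin and 15.92 in the control. Its outer medulla values were 14.44 with EG and phlorizin and 14.07 with EG, against 14.69 with phlorizin and 14.45 in the control. The EG arrays were the lower ones in each of the 4 pairs, with differences of -0.90 and -0.61 in cortex and -0.37 and -0.25 in outer medulla, without and with phlorizin in turn.

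Pck1, the cytosolic phosphoenolpyruvate carboxykinase, stood in the cortex at 16.16 with EG and phlorizin and at 15.00 with EG, against 17.48 with phlorizin and 17.44 in the control. The EG value was 5.44-fold lower than the control value (-2.44), and the value of EG with phlorizin 2.49-fold lower than that of phlorizin (-1.31). The outer medulla gave 6.27 with EG and phlorizin and 6.30 with EG, against 7.43 with phlorizin and 8.36 in the control. Its values on 3 of those 4 arrays lay in the range of the background probe sets, so the differences of -2.06 and -1.17 there are not exact.

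Pck2, the mitochondrial enzyme of the same step, did not follow this pattern. In the cortex it stood at 9.58 with EG and phlorizin and 9.39 with EG, against 9.02 with phlorizin and 9.56 in the control. In the outer medulla both EG arrays were at 9.52 and both arrays without EG at 9.10. The EG differences without phlorizin were -0.17 in cortex and 0.43 in outer medulla, and those under phlorizin 0.56 and 0.43. No difference between treatments reached 1 on the log2 scale for Pck2 in either zone.

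Fbp1, the fructose-1,6-bisphosphatase gene, was at 17.29 with EG and phlorizin and 15.84 with EG in the cortex, against 17.59 with phlorizin and 17.75 in the control. Its cortex EG difference was -1.91 without phlorizin (3.76-fold lower) and -0.30 with it. The outer medulla showed the opposite order of sizes. There Fbp1 stood at 7.60 with EG and phlorizin and 8.17 with EG, against 9.54 with phlorizin and 9.34 in the control, which gave -1.94 with and -1.17 without phlorizin. The value of 7.60 lay in the background range.

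G6pc1, the last enzyme of glucose release, stood in the cortex at 14.58 with EG and phlorizin and 13.64 with EG, against 15.41 with phlorizin and 15.99 in the control. Its outer medulla values were 8.57 with EG and phlorizin and 6.95 with EG, against 10.22 with phlorizin and 10.42 in the control. Its EG difference without phlorizin was -2.35 in cortex (5.09-fold lower), and -3.47 in outer medulla, where its EG array was in the background range. Under phlorizin the differences were -0.83 and -1.65.

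Slc37a4, the partner transporter of glucose-6-phosphatase, differed mainly in the cortex. It stood there at 13.90 with EG and phlorizin and 11.53 with EG, against 14.50 with phlorizin and 14.25 in the control, so that EG was 6.59-fold lower than the control (-2.72) and 1.51-fold lower under phlorizin (-0.59). In the outer medulla its values were 8.29 with EG and phlorizin and 8.20 with EG, against 8.52 with phlorizin and 8.56 in the control. These lay just above the background range, and the differences there were -0.23 with and -0.36 without phlorizin.

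Across the 7 genes, 6 were lower with EG in both zones and in both phlorizin arms, and Pck2 was the exception. The share of all tested probe sets with this agreement of signs was not counted. At a size of at least 1 without phlorizin, 5 of 7 were lower in the cortex (12.7% of all 13163 tested probe sets), 4 of 7 in the outer medulla (9.69%), and 4 of 7 in both zones (4.47%), namely Pck1, Fbp1, G6pc1 and Slc38a3. None was at least 1 higher in the cortex (9.66%), the outer medulla (8.58%) or both (4.9%). Their median difference was -2.35 in cortex and -1.17 in outer medulla, beside -0.07 and -0.05 over all tested probe sets. Under phlorizin, 2 of 7 were at least 1 lower in the cortex (1.55%), 4 of 7 in the outer medulla (3.01%) and 2 of 7 in both zones (0.319%), which were Pck1 and Slc38a3, and none was at least 1 higher in the cortex (2.43%), the outer medulla (3.65%) or both (0.995%). Medians of the 7 were then -0.61 and -1.17, beside -0.05 and -0.02 over all tested probe sets. The comparison under phlorizin does not use the cortex EG array, whose spike-in controls were the lowest. Some outer medulla members of these counts rest on values in the background range. Without phlorizin these were the EG values of Pck1 and G6pc1. Under phlorizin they were both values of Pck1 and the Fbp1 value of EG with phlorizin.

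**Figure D2:**
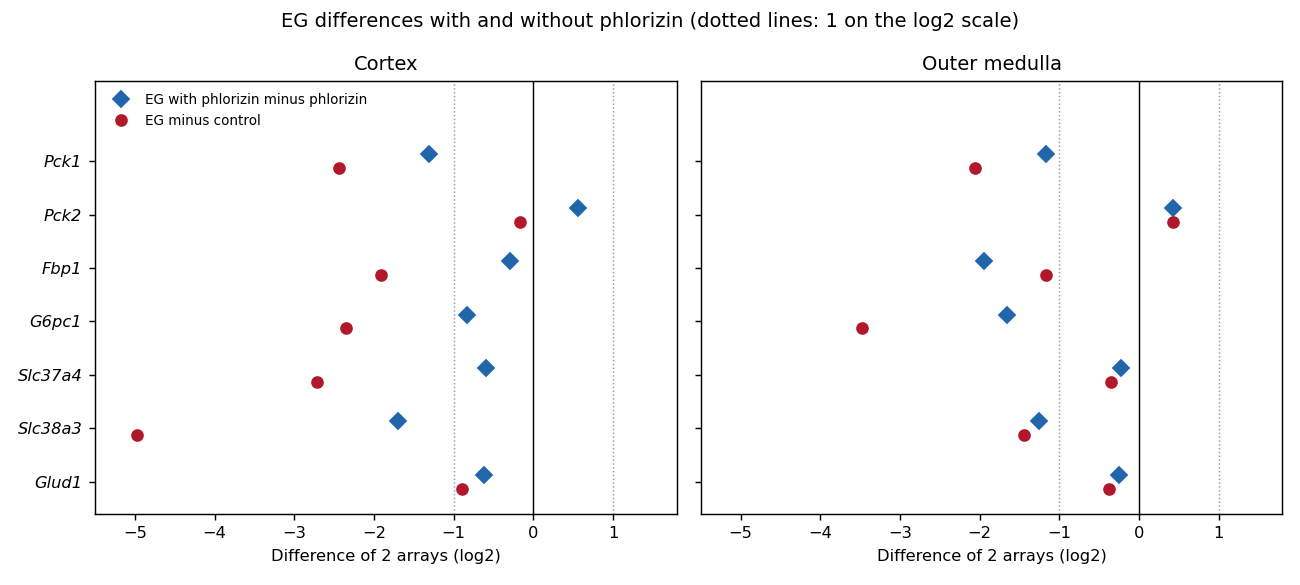
Differences of 2 arrays on the log2 scale (horizontal axes) for each of the 7 genes, with a panel per zone. Diamonds give EG with phlorizin minus phlorizin and circles EG minus control, and dotted lines mark 1 in either direction. In the cortex all 7 circles lie left of 0 and left of their diamonds, with Slc38a3 at -4.97 farthest out, while Fbp1 has the reverse order in the outer medulla.

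The EG effect was tested with limma on 4 profiles, each the mean of both zones of a treatment, with EG and phlorizin as terms. None of the 7 genes passed an adjusted p of 0.05 in that fit, in which 0.038% of the tested probe sets passed, 5 higher with EG and 0 lower (485 higher and 386 lower with each array centred on its median). At an unadjusted limma p under 0.05, 6 of 7 were lower, beside 12.9% of all tested probe sets, and none higher, beside 9.85% (22.7% in either direction). Slc38a3 had an effect of -2.34 (SE 0.41, limma adjusted p = 0.0809) and Pck1 of -1.75 (SE 0.29, limma adjusted p = 0.0809). For Fbp1 the effect was -1.33 (SE 0.22, limma adjusted p = 0.0809), and for G6pc1 -2.08 (SE 0.40, limma adjusted p = 0.0838). Slc37a4 (-0.98, SE 0.31, adjusted p = 0.146 by limma), Glud1 (-0.53, SE 0.21, 0.209) and Pck2 (0.31, SE 0.22, 0.448) followed. The fit has 1 residual degree of freedom, which holds the interaction of EG with phlorizin. The call depended on the settings: Pck1, Fbp1, G6pc1 and Slc38a3 passed with each array centred on its median (limma adjusted p from 0.0178 to 0.0231), with no filter on low values (0.0285 to 0.0351) and with the 8 arrays as samples (0.0212 to 0.0489). Among all probe sets, 231 were called lower and 400 higher with no filter, and 862 and 830 with the 8 arrays. With quantile normalization the limma adjusted p of these genes was 0.188. None of the 7 genes passed under 7 of the 11 alternatives.

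**Figure D3:**
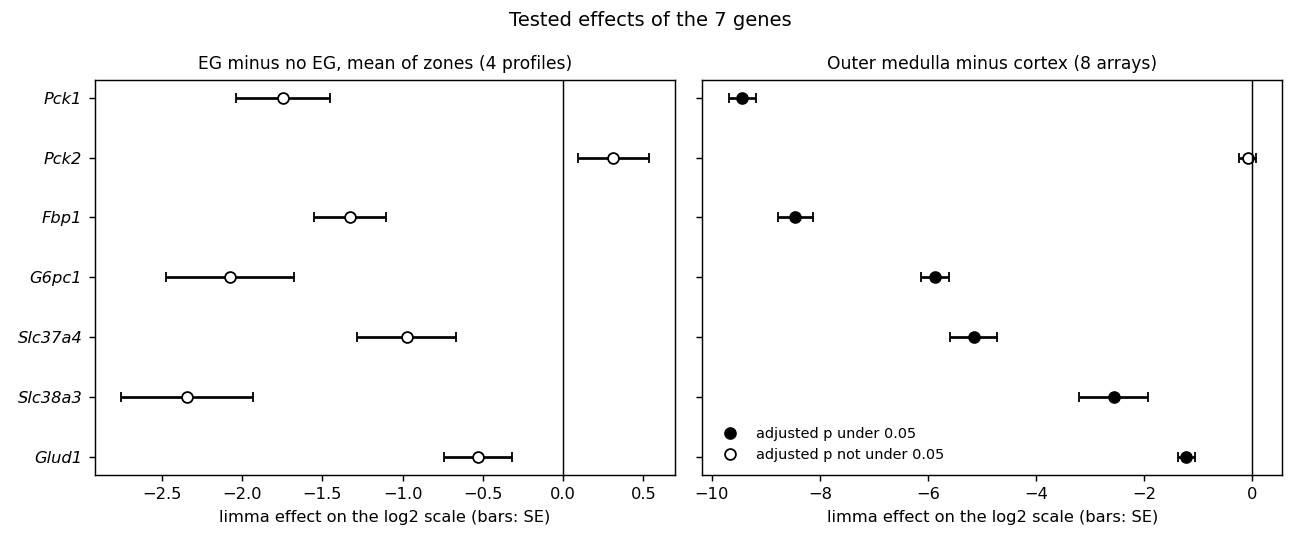
Effects of the 7 genes in the limma fits on the log2 scale (horizontal axes), with bars for 1 SE. The left panel gives EG minus no EG over 4 profiles and the right panel outer medulla minus cortex over 8 arrays, and filled points passed an adjusted p of 0.05. On the left no point is filled and Pck2 alone lies right of 0, and on the right 6 points are filled and Pck2 lies near 0.

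Whether the EG effect differed between the zones was tested on the 4 differences of cortex minus outer medulla. None of the 7 genes passed, and 0% of all tested probe sets did, while at an unadjusted limma p under 0.05 it was 3 of 7 beside 12.4%, with 2 effects more negative in cortex (6.47%) and 1 effect less negative there (5.9%). The EG effect of Slc38a3 was more negative in the cortex by -1.99 (SE 0.74, limma adjusted p = 0.392) and that of Slc37a4 by -1.36 (SE 0.52, limma adjusted p = 0.397). For G6pc1 it was more negative in the outer medulla, with a difference of 0.97 (SE 0.27, limma adjusted p = 0.328). Pck1 (-0.27), Fbp1 (0.45), Glud1 (-0.44) and Pck2 (-0.23) had adjusted p-values by limma of 0.741, 0.804, 0.566 and 0.809.

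Among EG kidneys, all 7 genes had a higher cortex value with phlorizin than without it. The differences were 3.76 for Slc38a3 (13.6-fold higher), 2.37 for Slc37a4 (5.17-fold), 1.46 for Fbp1, 1.16 for Pck1, 0.94 for G6pc1, 0.46 for Glud1 and 0.19 for Pck2. At a size of at least 1, 4 of 7 were higher in the cortex (7.35% of all tested probe sets), 1 of 7 in the outer medulla (3.35%) and none in both zones (1.15%). None was at least 1 lower in the cortex (6.18%), the outer medulla (4.34%) or both (1.71%). In the outer medulla G6pc1 differed by 1.62, Glud1 by 0.37, Slc38a3 by 0.15, Slc37a4 by 0.086, Pck2 by -0.00050, Pck1 by -0.033 and Fbp1 by -0.57. For 6 genes the cortex value of EG with phlorizin lay between those of EG and of the control, and for 5 genes the outer medulla value did. The shares of all tested probe sets with these orders, or with a higher value of any size, were not counted. These comparisons share the EG arrays with those above, and the difference between the EG effects with and without phlorizin was not tested. The cortex comparisons use the EG array whose poly-A spike-in controls were the lowest.

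Phlorizin without EG was accompanied by small differences of either sign. In the cortex they were 0.50 for Slc38a3, 0.25 for Slc37a4, 0.18 for Glud1, 0.035 for Pck1, -0.16 for Fbp1, -0.54 for Pck2 and -0.58 for G6pc1. Outer medulla differences were 0.24 for Glud1, 0.20 for Fbp1, -0.0017 for Pck2, -0.028 for Slc38a3, -0.040 for Slc37a4, -0.20 for G6pc1 and -0.92 for Pck1, whose phlorizin array lay in the background range. None of the 7 reached 1 in either zone (0.501% lower and 0.653% higher among all tested probe sets for cortex, 0.205% and 0.577% for outer medulla, 0.0152% and 0.0304% in both). The limma effect of phlorizin over both EG arms was 1.10 for Slc38a3 (SE 0.41, limma adjusted p = 0.995) and 0.67 for Slc37a4 (SE 0.31, limma adjusted p = 0.995). It passed for none of the 7 and for 0% of all tested probe sets. At an unadjusted limma p under 0.05, Slc38a3 alone of the 7 was higher, beside 1.53% of all tested probe sets, and none was lower, beside 2.02% (3.56% in either direction).

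Most of these genes were far lower in the outer medulla than in the cortex. In a limma fit of all 8 arrays, blocked by treatment, 6 of 7 were lower in the outer medulla at an adjusted p under 0.05, beside 18.8% of all tested probe sets, and none was higher, beside 32.7% (51.5% in either direction). Pck1 had an effect of -9.43 (SE 0.25, limma adjusted p = 5.89e-06), Fbp1 of -8.46 (SE 0.32, limma adjusted p = 1.57e-05) and G6pc1 of -5.87 (SE 0.25, limma adjusted p = 1.97e-05). Slc37a4 had -5.15 (SE 0.43, limma adjusted p = 0.000202), Slc38a3 -2.56 (SE 0.65, limma adjusted p = 0.0159) and Glud1 -1.21 (SE 0.16, limma adjusted p = 0.00103). Pck2 did not pass, with -0.079 (SE 0.16, limma adjusted p = 0.697). As most outer medulla values of Pck1 lay in the background range, its zone difference is not exact.

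Slc38a3 was the gene whose zone difference varied most with treatment. Its outer medulla value minus its cortex value was -3.37 with EG and phlorizin, 0.24 with EG, -3.82 with phlorizin and -3.29 in the control. The zones were thus nearly level on the EG arrays alone. Without the EG pair of arrays the effect was -3.49 with a limma adjusted p of 3.31e-06, while leaving out the control, the phlorizin or the EG with phlorizin pair ended the call (limma adjusted p from 0.0624 to 0.0800). Slc37a4 had -5.62, -3.33, -5.98 and -5.69 in the same order of treatments and passed in each of these fits.

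The labelled tissue was checked with markers. Markers of the first proximal segments averaged 15.5 to 16.5 on the cortex arrays, against 6.97 to 7.48 on the outer medulla arrays. In the outer medulla 8 to 10 of the 14 were in the background range. All 14 were lower in the outer medulla by limma at an adjusted p under 0.05. With EG, the median difference of these 14 markers was -0.70 in cortex and 0.03 in outer medulla, and 4 of 14 were at least 1 lower in the cortex, 4 in the outer medulla and 2 in both, while 2 were at least 1 higher in the outer medulla. Slc5a2, encoding SGLT2, stood in the cortex at 16.25 with EG and phlorizin and 15.73 with EG, against 16.25 with phlorizin and 16.46 in the control. Its outer medulla values were at most 6.02, in the background range. Of 10 markers of the straight proximal segment 7 were tested, with median EG differences of -1.18 in cortex and 0.07 in outer medulla. In the zone fit, 5 of these 7 were lower and 1 higher in the outer medulla at a limma adjusted p under 0.05. Of the 10, 5 or 6 lay in the background range on the outer medulla arrays and 3 to 5 on the cortex arrays. Hepatocyte markers Alb, Cps1 and Apoa1 were in the background range on every array. Tubule injury markers averaged 11.3 and 12.8 on the cortex arrays of EG with phlorizin and of EG, against 9.23 and 9.30 with phlorizin and in the control. In the outer medulla these averages were 11.4 with EG and phlorizin and 12.97 with EG, against 9.80 with phlorizin and 9.90 in the control. Of the 7 tested injury markers Havcr1, which encodes KIM-1, and Clu passed the limma test of EG, both higher (7.26, adjusted p = 0.0355 by limma, and 4.30, adjusted p = 0.0214). The control values of Havcr1 lay in the background range in both zones. Macrophage markers averaged 7.60 with EG and phlorizin and 9.60 with EG in the cortex, against 6.75 with phlorizin and 6.66 in the control. With EG, median differences were -1.96 and -1.35 for 6 markers of the thick ascending limb, -2.80 and -0.51 for 7 of the collecting duct, -1.25 and -1.05 for 5 of the endothelium and 3.77 and 2.69 for 6 of fibroblasts and matrix, cortex before outer medulla. The part of these markers in the differences of the 7 genes was not tested.

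**Figure D4:**
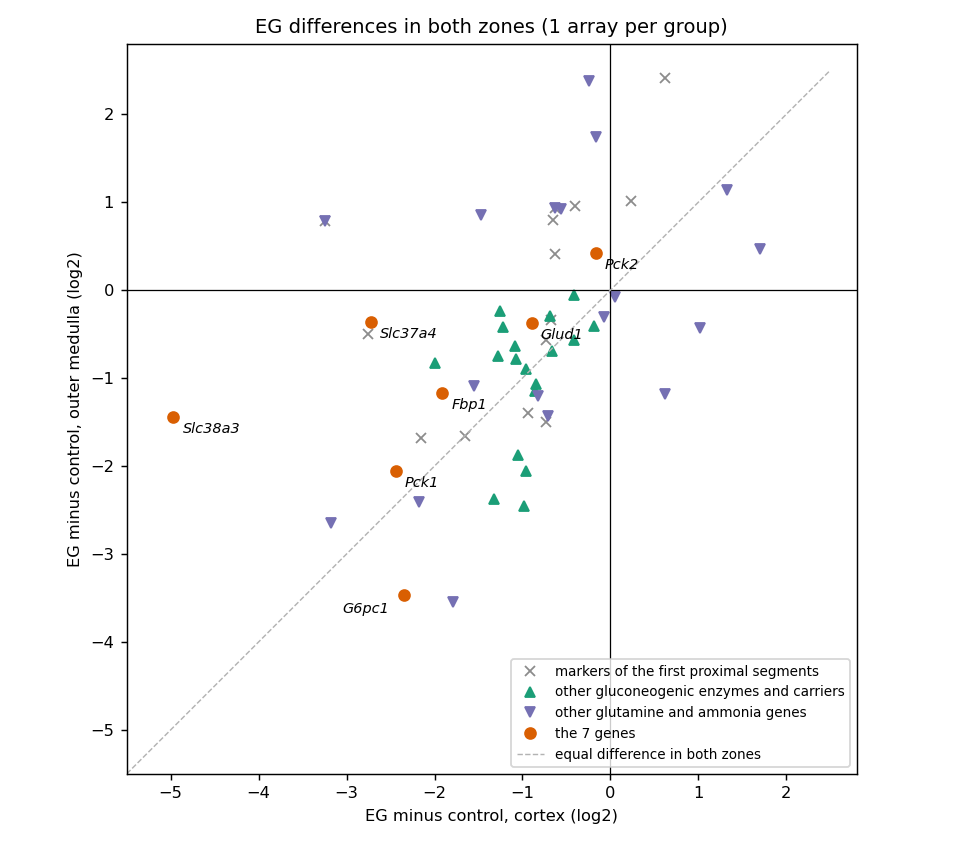
EG minus control on the log2 scale for cortex (horizontal axis) and outer medulla (vertical axis), 1 array per group, for the 7 genes, other genes of both pathways and markers of the first proximal segments. The dashed line marks equal differences. Pck1 lies near the line, Slc38a3 and Slc37a4 lie above it, G6pc1 lies below it and Pck2 lies near the origin.

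Other enzymes and carriers of gluconeogenesis had smaller median differences with EG. Of 21 such genes with a probe set, 18 were tested. Without phlorizin their medians were -0.97 in cortex and -0.77 in outer medulla, with 8 at least 1 lower in the cortex, 6 in the outer medulla, 2 in both and none at least 1 higher in either. Mpc1, a subunit of the mitochondrial pyruvate carrier, differed by -1.32 in cortex and -2.38 in outer medulla. Got1, the cytosolic aspartate aminotransferase, differed by -0.98 and -2.45, Ldhb, a lactate dehydrogenase, by -0.96 and -2.05, and Mdh1, the cytosolic malate dehydrogenase, by -1.05 and -1.88. Under phlorizin the medians were -0.19 and -0.62. In the limma fit none of the 18 passed, and 13 were lower at an unadjusted p under 0.05.

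Of 19 other genes of glutamine use and ammonia with a probe set, 18 were tested. Their medians with EG were -0.60 in cortex and -0.19 in outer medulla, with 4 lower by at least 1 in both zones and 1 higher by that much. Rhbg (-3.18 and -2.65) and Rhcg (-2.17 and -2.41), ammonia transporters of the collecting duct, and Slc9a3 (-1.79 and -3.54), the sodium-proton exchanger NHE3, were among those lower in both zones. Slc1a1, a glutamate transporter, differed by -1.55 and -1.10. Rhcg stood in the cortex at 13.91 with EG and phlorizin and 12.11 with EG, against 14.42 with phlorizin and 14.28 in the control. None of the 18 passed in the limma fit of EG, and at an unadjusted p under 0.05, 6 were lower and 3 higher.

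Of 21 regulators with a probe set 20 were tested, with medians of -0.31 in cortex and -0.36 in outer medulla. Ppara, a nuclear receptor that drives fat oxidation, differed by -3.79 and -2.74 with EG, and Klf15, a regulator of amino acid breakdown and gluconeogenesis in liver, by -1.80 and -1.59. The outer medulla EG value of Ppara, 7.56, lay in the background range, so its difference there is not exact. Ppargc1a, the coactivator of mitochondrial genes, differed by -0.57 and -1.69. Myc, a growth regulator, stood in the cortex at 10.07 with EG and phlorizin and 11.24 with EG, against 8.44 with phlorizin and 7.84 in the control, which made a difference of 3.39 without phlorizin, and of 3.01 in the outer medulla. None of the 20 passed in the limma fit of EG, and 4 were lower and 2 higher at an unadjusted p under 0.05.

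Genes of the opposing glycolytic steps had no common direction. Of 15 such genes with a probe set 12 were tested, with medians of 0.60 in cortex and -0.45 in outer medulla. Pklr, the pyruvate kinase of liver and proximal tubule, differed by -2.47 and -0.69, Pfkfb4, which sets a regulator of phosphofructokinase, by -2.29 and 0.31, and Pfkm, a phosphofructokinase, by -1.34 and -1.25. Hk2, an inducible hexokinase, differed by 1.09 and 1.33, with 3 of its 4 cortex values, the control among them, in the background range. None passed in the limma fit of EG, and 4 were lower and 1 higher at an unadjusted p under 0.05. Of 9 genes of substrate entry and exit, all tested, the medians were -0.80 and 0.24. Slc16a7, a monocarboxylate transporter, differed by -2.19 and -2.72, Slc13a2, the citrate and dicarboxylate transporter, by -2.49 and 0.59, Slc5a12, the lactate transporter, by -0.73 and -1.50, and Slc2a2, the glucose exit transporter GLUT2, by 0.62 and 2.42. None of these 9 passed, and 5 were lower at an unadjusted p under 0.05. Outer medulla values of Slc13a2, Slc5a12, Slc2a2 and Pklr lay in the background range, as did 3 of the 4 of Pfkfb4, so their differences there are not exact.

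Likeness of pattern was measured as Pearson's r over the 8 arrays after each value was centred on the mean of its zone. It is a description, since the arrays share the zone means and may share a hybridisation, which the labels do not give. Among the members, Slc37a4 and Slc38a3 were most alike, with r = 0.977, and for Slc38a3 this was rank 56 among 9314 named genes. Pck1 had r = 0.898 with Fbp1, 0.882 with Slc38a3 and 0.864 with G6pc1, which for Pck1 were ranks 520, 678 and 864. G6pc1 had 0.569 with Slc37a4, rank 3014 for G6pc1. Pck2 had r between -0.573 and -0.199 with the others. The named genes most like Slc38a3 were Nudt12 (0.996), Gc (0.995), which encodes the vitamin D binding protein, and Mcoln1 (0.995). Those most like Pck1 were Gna11 (0.992), Serp1 (0.988) and Mrpl15 (0.988), and those most like G6pc1 were Mfn2 (0.998), a gene of mitochondrial fusion, Atp23 (0.997) and Strbp (0.995). Fbp1 was most like Rab3a (0.995), Slc22a2 (0.991), an organic cation transporter, and Coq3 (0.990). Slc37a4 was most like C2cd2l (0.997), Acaa1b (0.996) and Akr7a2 (0.994), Glud1 most like Stxbp5 (0.988), Id4 (0.987) and Pals2 (0.987), and Pck2 most like Inpp5b (0.965), Ppan (0.965) and Cdc26 (0.964).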

How the data were processed

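Expression of the renal cortex and outer medulla was measured on 8 Clariom S rat arrays. The deposited values are RMA values, per the submitters' processing notes. That they are log2 values was inferred from the deposited range of 2.28 to 19.7, and software, version and settings of RMA are not given in the sources used here. RMA makes arrays alike in distribution, so a shift of most genes would not be seen. High values can be compressed. The sources used here do not say whether the deposited scale stretches differences, so fold sizes are those of that scale. No raw intensities were used.

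Of 24834 probe sets, 1646 were no transcript probe sets and were not used, 15049 of the remaining 23188 had a gene symbol, and 8139 had none in the table used. Where a symbol had more than 1 probe set (10 symbols), the one of highest mean stood for it. Tests covered the 13163 probe sets (9315 named) whose highest value reached the median of all values, 7.54. Values were not normalized further. Chromosome positions are those of RefSeq on GRCr8.

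limma 3.58.1 in R 4.3.3 gave moderated, 2-sided p-values with the Benjamini-Hochberg adjustment over all tested probe sets, at 0.05. EG, phlorizin and the zone dependence of EG were fitted on 4 profiles with 1 residual degree of freedom, and the zones on 8 arrays with the treatment as a block. Nothing says that samples came from separate animals, and no group had a replicate array. The p-values therefore rest on the spread that the fitted terms leave. On the 4 profiles this was the interaction of EG with phlorizin. In the zone fit it was the variation of the zone difference between treatments. Technical spread cannot be told apart from either, and the number of arrays limits the precision. The fits were also run on simulated data with independent spread and no interaction of EG with phlorizin. That run cannot show how an interaction or shared animals affect the p-values. Differences were computed in Python 3.11.15 (numpy 2.4.6, pandas 2.3.3) and drawn with matplotlib 3.10.9.

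The members and gene lists were chosen with earlier results of these data known. Of each pathway list the text names the 4 tested genes with the largest mean EG difference, and for each member the 3 most like genes. Slc5a2 and the hepatocyte markers were named as tissue checks, and Havcr1 and Clu after their values were seen. Alternatives covered normalization, filter, probe set choice, variance prior, unit of the fit, left-out pairs of arrays and size threshold.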

Additional observations from a re-analysis of the deposited data

Results flagged for a closer look

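Among the 7 genes and the pathway genes named above, the only ones examined for this, 5 had a treatment difference of opposite sign in the zones. In these, the difference had 1 sign on all comparable arrays of the cortex and the other sign on all those of the outer medulla. Pck1 differed between phlorizin and no phlorizin by 0.035 without and 1.16 with EG in the cortex, and by -0.92 and -0.033 in the outer medulla, where most of its values were in the background range. Pklr differed in the same comparison by 0.13 and 2.16 in the cortex and by -0.0089 and -0.81 in the outer medulla, where all its values were in the background range, and Hk2 by -0.22 and -1.08 in the cortex and by 0.72 and 0.30 in the outer medulla, with 3 of its 4 cortex values in the background range. These 3 zone differences of the phlorizin effect were not tested. Pfkfb4 differed between EG and no EG by -2.29 without and -0.72 with phlorizin in the cortex, and by 0.31 and 0.14 in the outer medulla, where 3 of its 4 values were in the background range. Slc13a2 differed in that comparison by -2.49 and -0.91 in the cortex and by 0.59 and 0.34 in the outer medulla, where all its values were in that range. The signs in the zone with background values are therefore not settled. For Pfkfb4 and Slc13a2, in that order, the limma test of the zone difference of the EG effect gave adjusted p-values of 0.318 and 0.269.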

How the results depend on the processing

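The number of probe sets called for the EG effect depended on the settings. It was 5 as reported, 0 with quantile normalization, 871 with arrays centred on their median (485 higher and 386 lower), 631 with no filter on low values, 59 with the variance prior as a trend, 2 with a robust prior, 355 on the outer medulla arrays alone, 1692 with all 8 arrays and a random treatment block, and 0 with EG as the only term. The cause was not tested. Of the 7 genes, 4 were called with centring, with no filter and with 8 arrays, and G6pc1 and Slc38a3 on the outer medulla arrays alone, each lower with EG. None was called under the other 7 alternatives. Pck1, Fbp1, G6pc1, Slc37a4, Slc38a3 and Glud1 kept a negative EG effect with quantile normalization, with centring and on either zone's arrays alone. The other alternatives leave the estimates of these genes unchanged by construction, so their sign could not turn there. For Slc38a3 the effect ranged from -3.34 on the cortex arrays alone to -1.35 on the outer medulla arrays alone. The zone difference of the EG effect was called for 0 probe sets as reported, and for 9 with quantile normalization, 4 with no filter, 2 with the filter on the mean and 48 with the prior as a trend. At a size threshold of 2, the probe sets past it in both zones were 231 for EG against control (1234 at 1), 12 for EG under phlorizin (173), 43 for phlorizin under EG (377, of which 152 higher and 225 lower, or 193 and 187 with centring) and 1 for phlorizin against control (6), the last being 3 with the filter on the mean. The sign turned for Pfkfb4 (EG effect 0.22) and Slc13a2 (0.46), and for the phlorizin effect of Pck1 (-0.48) and Fbp1 (-0.18), on the outer medulla arrays alone, for the zone difference of the EG effect of Pck1 with quantile normalization (0.0066), and for the zone difference of Pck2 without the control pair (0.050, and between -0.15 and 0.050 over the 4 left-out pairs). Leaving out 1 pair of arrays at a time left between 4667 and 7480 probe sets called between zones. The zone fit paired the 2 arrays of each treatment. No paired analysis was possible for the comparisons between treatments, because each zone and treatment has 1 array. Values near the background limit what the outer medulla can show for Pck1, Fbp1, G6pc1 and Slc37a4.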
